A study of Mus musculus with 6 samples.

Results

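Necdin (Ndn) and its imprinted neighbours form the Prader-Willi locus, and 7 genes of it (Ndn, Magel2, Mkrn3, Peg12, Snrpn, Snurf and Ube3a) were followed by symbol among the 17645 genes listed in 6 RNA-seq libraries of mouse suprachiasmatic nucleus (SCN), the hypothalamic seat of the central circadian clock. The members were chosen by the FPKM and counts of Ndn in this same contrast, r1r2V against V, and by their place in the locus around it, so the comparison of genotypes is given for all 7 as a description. Where fold changes, intervals or calls from the fit over all genes are printed for them, they describe these libraries and support nothing. The 3 libraries titled r1r2V were read as the knockout of REV-ERBα and REV-ERBβ (Nr1d1 and Nr1d2) in GABAergic neurons that the series title names, and the 3 titled V as their control. All mice were female C57BL/6, killed in darkness between zeitgeber time (hours after lights on) 12 and 14, and each library was made from RNA of 2 pooled SCN taken by needle punch. The labels give neither the age nor the Cre line, and they do not expand V, so any allele that both groups share is not stated. A punch also holds glia, vessels and neurons outside the targeted class. In such bulk samples a change in the number of cells of a type and a change in RNA per cell cannot be told apart.

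The locus is imprinted, which means that a gene is read mainly from the chromosome inherited from a given parent. Ndn, Magel2, Mkrn3, Peg12, Snrpn and Snurf are read from the paternal copy, and loss of the paternal human region causes Prader-Willi syndrome, a disorder with strong hypothalamic features. Ube3a is read mainly from the maternal copy in neurons, and its loss causes Angelman syndrome. Necdin is a MAGE-domain protein abundant in postmitotic neurons, where it binds E2F transcription factors and restrains growth, and it has been linked to the stability of BMAL1, a clock activator. The deposited values are totals per gene and do not separate the parental alleles.

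Ndn was higher in r1r2V, and its neighbours did not separate by genotype. Ndn averaged 1019 ± 67.3 FPKM in r1r2V libraries and 549 ± 77.8 FPKM in V libraries (SD, n = 3 each), a ratio of means of 1.86. FPKM are fragment counts divided by transcript length and by library depth, the scale on which levels of different genes are compared here. The summed FPKM of the other 6 genes was 585 ± 38.5 in r1r2V and 624 ± 6.43 in V (SD, n = 3 each), and those groups overlapped.

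The start region of Ndn is shown first, since it belongs to the gene whose level differed, followed by those of Magel2, the nearest member downstream, and of Snurf, the nearest match in level. Each window runs from 250 bases before to 50 bases after the start site of the RefSeq gene (GRCm38.p6), read 5′ to 3′ on the strand of the gene. The windows are chr7:62348027-62348326 on the plus strand for Ndn, chr7:62376729-62377028 on the plus strand for Magel2 and chr7:60005150-60005449 on the minus strand for Snurf. Capitals mark matches to a D-box (TTATGTAA on either strand) and to the core bound by the factor NRF1 (GCATGCGC on either strand, or the palindrome CGCATGCG).
Ndn: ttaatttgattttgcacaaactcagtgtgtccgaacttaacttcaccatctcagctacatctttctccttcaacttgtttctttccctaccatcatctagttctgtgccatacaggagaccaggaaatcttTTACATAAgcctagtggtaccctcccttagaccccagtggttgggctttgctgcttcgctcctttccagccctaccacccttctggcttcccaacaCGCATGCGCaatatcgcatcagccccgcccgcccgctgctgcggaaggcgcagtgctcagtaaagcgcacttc
Magel2: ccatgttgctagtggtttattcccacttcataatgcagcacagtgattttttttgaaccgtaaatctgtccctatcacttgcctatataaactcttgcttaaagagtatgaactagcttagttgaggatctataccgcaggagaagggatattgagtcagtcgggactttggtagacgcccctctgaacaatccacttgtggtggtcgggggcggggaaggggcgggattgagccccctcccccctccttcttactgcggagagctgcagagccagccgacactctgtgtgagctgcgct
Snurf: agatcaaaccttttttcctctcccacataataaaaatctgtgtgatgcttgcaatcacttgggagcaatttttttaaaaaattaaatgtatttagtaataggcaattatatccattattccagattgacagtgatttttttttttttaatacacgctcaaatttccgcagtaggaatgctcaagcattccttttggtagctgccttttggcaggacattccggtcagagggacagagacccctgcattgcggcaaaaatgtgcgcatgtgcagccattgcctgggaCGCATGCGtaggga

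The Ndn window held a D-box match on the minus strand that begins 119 bases before the start site. D-boxes are bound by the clock-controlled activators of the Dbp family and by the repressor Nfil3. Of 32841 windows of the same length in the RefSeq table, 0.938% held TTATGTAA on either strand. None of the other members' windows held it. The Ndn window also held GCATGCGC, which begins 22 bases before the start site, and 2.71% of all windows held that motif. The palindrome CGCATGCG, which overlaps it and was chosen after the windows had been read, was present in Ndn and in all 4 start windows listed for Snrpn, 1 of which is the Snurf window itself, against 1.87% of all windows. In the Snurf window it begins 36 bases after the start site. Neither the E-box CACGTG, which 7.15% of all windows held, nor AGGTCA, the half-site of REV-ERB and ROR receptors, which 16.3% held on either strand, was found in any member's window. A match is a run of letters and not a shown binding site.

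The genes lie on chromosome 7 of GRCm38 in 2 groups. Ndn (gene 17984) spans 62348277 to 62349928 on the plus strand. Magel2 (gene 27385), at 62376979 to 62381640, begins 27.1 kb beyond the end of Ndn. Mkrn3 (gene 22652), at 62417593 to 62420153, and Peg12 (gene 27412), at 62461871 to 62464510, follow on the minus strand, and the whole group from Ndn to Peg12 covers 116.2 kb. Snrpn (gene 20646), at 59982495 to 60450177 on the minus strand, ends 1.9 Mb before Ndn, and Snurf (gene 84704), at 59982495 to 60005199, lies within it. Ube3a (gene 22215) lies farther off at 59228750 to 59310837 on the plus strand. Ndn, Magel2, Mkrn3 and Peg12 each have 1 exon in the GENCODE annotation, whereas Snrpn, Snurf and Ube3a are spliced.

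Ndn stood apart in every library. It had 26463, 29882 and 25861 expected counts in r1r2V replicates 1, 4 and 5, and 15155, 12914 and 15343 in V replicates 2, 3 and 4. As CPM, counts divided by the normalised library size but not by length, it had 1536, 1717 and 1507 CPM in r1r2V and 855, 728 and 973 CPM in V. All 3 r1r2V libraries lay above all 3 V libraries, and the gap between the lowest r1r2V and the highest V library was wider than the range within either group. The log2 fold change, r1r2V minus V, was 0.90 with a standard error of 0.10. Of 14438 genes that passed the filter on low counts, Ndn had the largest difference in mean CPM between the groups, 734.5 CPM, a rank that describes the gene and is no evidence, since that difference chose it. Ranked by FPKM among all listed genes, Ndn stood at places 24, 20 and 29 in r1r2V and 109, 144 and 75 in V. It took 0.220% of all FPKM in r1r2V on average and 0.118% in V.

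**Figure D1:**
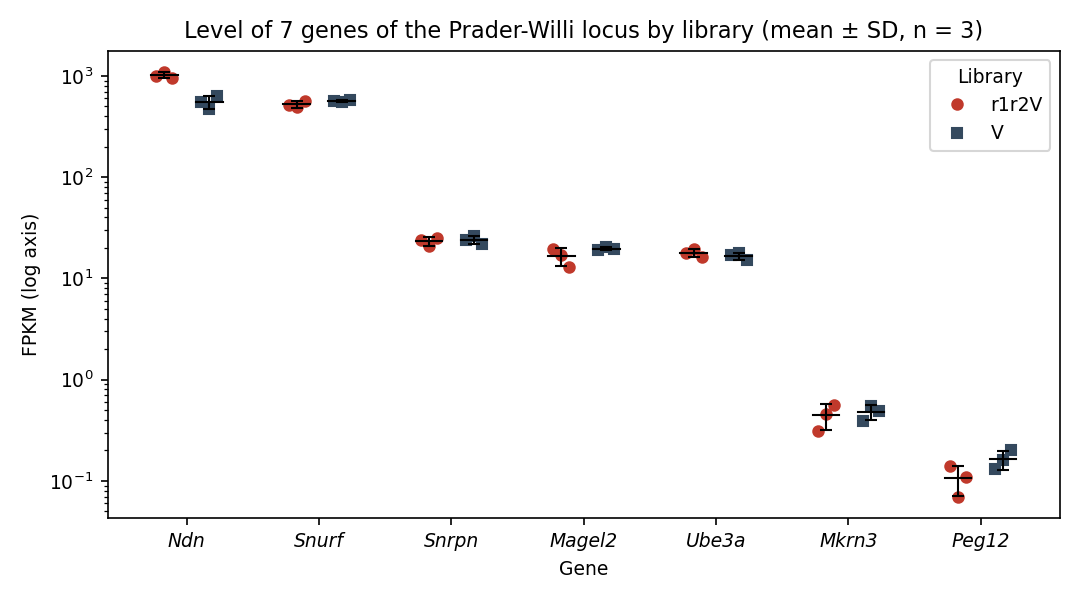
Level of each of the 7 genes in each library, in FPKM on a log axis. Red circles are r1r2V libraries and dark squares V libraries, and black lines give mean ± SD (n = 3). The r1r2V circles of Ndn, from 964 to 1094 FPKM, all lie above its V squares, from 471 to 627 FPKM, and for no other gene do the groups separate in this way.

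Ndn varied more than Snurf among the V pools. Its FPKM had a coefficient of variation of 6.60% over r1r2V libraries and 14.2% over V libraries. Snurf, at a like level, had one of 7.68% over r1r2V and 1.81% over V. The Ndn difference therefore rests on 3 V pools that ranged from 471 to 627 FPKM. Without V replicate 3, the lowest, the log2 fold change was 0.795, and without V replicate 4, the highest, it was 1.00.

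Magel2, the other MAGE gene of the group and part of a ubiquitin ligase complex that recycles membrane proteins from endosomes, had no such difference. It had 88.8, 79.0 and 60.0 CPM in r1r2V and 86.7, 91.7 and 89.8 CPM in V. Replicate 1 of r1r2V lay within the V range, and replicates 4 and 5 lay below it. The log2 fold change was -0.23 with a standard error of 0.12 and a 95% interval from -0.50 to 0.03. Without r1r2V replicate 5 it was -0.095. That library also had the lowest level of 7 of 12 SCN markers, among them Vip, the gene of the SCN peptide VIP, with 11.4 CPM against 50.5 and 72.0 CPM in the other r1r2V libraries and 51.8 to 85.8 CPM in V. Only Avp, the gene of the SCN peptide vasopressin, was highest of the 6 libraries in r1r2V replicate 5. It had 384 CPM there against 160 and 190 CPM in the other r1r2V libraries and 247 to 360 CPM in V. The summed SCN markers of that library were the highest of r1r2V, at 653 CPM against 580 and 623 CPM. Avp was the largest part of that sum. The part of the SCN share of the punch in the Magel2 value was not tested.

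Mkrn3, which encodes a makorin ubiquitin ligase known in humans for restraining the onset of puberty, was close to the limit of detection. It had 13, 20 and 24 expected counts in r1r2V and 17, 24 and 19 in V. The ranges overlapped throughout. Its log2 fold change of -0.09 had a 95% interval from -0.76 to 0.58, so a moderate change in either direction was not detectable at this depth. Peg12, also named Frat3 and related to GSK3-binding FRAT proteins, had 6, 3 and 5 counts in r1r2V and 6, 7 and 8 in V and did not pass the filter on low counts. Its summed count was 14 in r1r2V, with an exact Poisson 95% interval from 7.65 to 23.5, and 21 in V, with one from 13 to 32.1. These intervals cover counting error only, and they overlap.

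Snurf and Snrpn are read from a shared paternal transcript, which encodes the small SNURF protein upstream of SmN, a neuronal protein of the splicing machinery. Snurf had 981, 956 and 1107 CPM in r1r2V and 1086, 1055 and 1100 CPM in V. Replicates 1 and 4 of r1r2V lay below the V range and replicate 5 above it. The log2 fold change was -0.09 with a standard error of 0.07 and a 95% interval from -0.24 to 0.06. Snrpn had 52.9, 46.9 and 56.8 CPM in r1r2V and 52.8, 57.7 and 49.5 CPM in V, with overlapping groups and a log2 fold change of -0.03 (95% interval -0.23 to 0.17). Their transcripts share at least 95% identity over 0.5 or more of the shorter one, so the estimation of expected counts divided shared reads between them, and the values of each alone are uncertain. Snrpn received 4.89 ± 0.218% of the summed counts of both in r1r2V and 4.71 ± 0.444% in V (SD, n = 3 each). With both summed, the locus had 1034, 1003 and 1163 CPM in r1r2V and 1139, 1112 and 1149 CPM in V, a log2 fold change of -0.087.

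Ube3a, the ubiquitin ligase gene read from the maternal copy, had 82.0, 92.9 and 78.3 CPM in r1r2V and 79.8, 83.5 and 71.8 CPM in V. The groups overlapped, and the log2 fold change was 0.11 with a standard error of 0.09 and a 95% interval from -0.08 to 0.30. Snhg14, a long non-coding RNA of the paternal copy, runs antisense to Ube3a over 38101 bp in the RefSeq annotation. It was not analysed here, and since strand use in counting was not given, reads of both cannot be told apart over that stretch. The span of Snhg14 also overlaps that of Snrpn over 467683 bp and that of Snurf over 22705 bp. Its part in their reads was not tested.

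Across the members, 1 of the 6 that passed the filter was called higher in r1r2V at an adjusted p of 0.05 (edgeR, quasi-likelihood F-test, Benjamini-Hochberg adjustment), where 0.298% of all tested genes were, and 0 were called lower, where 0.118% were. Likewise 1 of the 6 had every r1r2V CPM above every V CPM, where 6.87% of all tested genes did. That gene was Ndn in both counts, and since its choice rested on this contrast, nothing is read from them. None of the 4 single-exon members except Ndn was higher in all 3 r1r2V libraries than in all 3 V libraries. No other gene shared at least 95% identity with Ndn over 0.5 of the shorter transcript, so its reads were not open to division between copies of that kind.

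**Figure D2:**
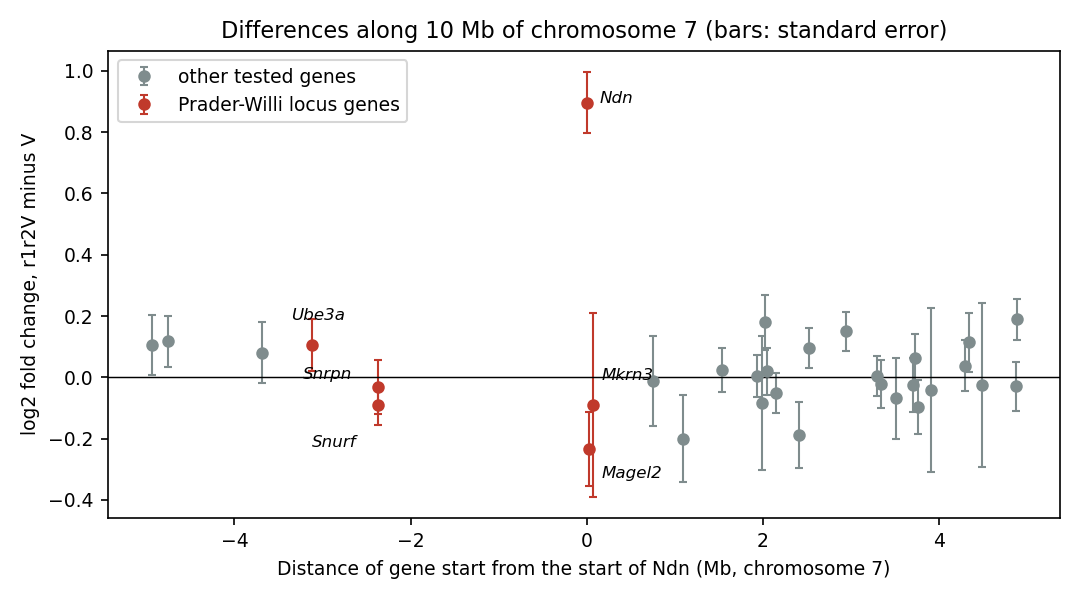
Log2 fold change, r1r2V minus V, of tested genes that start within 5 Mb of the start of Ndn on chromosome 7, against the distance of their start from that of Ndn in Mb. Red points are members of the locus, grey points other genes, and bars give the standard error. Ndn lies at 0.90, and the other genes lie between -0.23 and 0.19.

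The ratio of Ndn to its neighbours within each library does not depend on scaling between libraries. Ndn over Snurf, both in FPKM, was 1.94, 2.22 and 1.69 in r1r2V and 0.974, 0.853 and 1.09 in V. Ndn was thus the more abundant of the pair in all r1r2V libraries, and the pair was close to parity in V. Ndn over Magel2 was 50.8, 63.8 and 74.1 in r1r2V and 29.0, 23.3 and 31.8 in V. Ndn over Ube3a was 56.6, 56.4 and 58.8 in r1r2V and 32.6, 26.5 and 41.1 in V. Ndn over Snrpn was 41.8, 52.3 and 38.4 in r1r2V and 23.0, 17.9 and 28.6 in V. The groups did not overlap in these ratios, which all have Ndn as numerator and so restate the difference by which it was chosen. Ndn made up 63.5 ± 2.96% of the summed FPKM of the 7 genes in r1r2V and 46.7 ± 3.29% in V, and Snurf made up 32.9 ± 2.99% in r1r2V and 48.1 ± 2.60% in V (SD, n = 3 each).

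**Figure D3:**
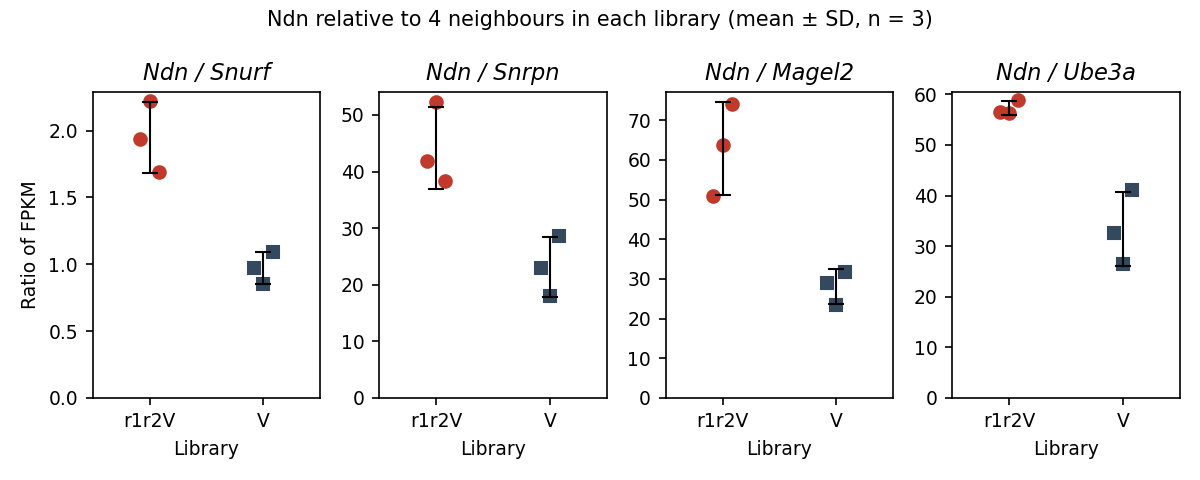
Ratio of the FPKM of Ndn to that of Snurf, Snrpn, Magel2 and Ube3a in each library, with r1r2V (red circles) left of V (dark squares) and mean ± SD in black (n = 3). Each axis starts at 0. In each panel all r1r2V libraries lie above all V libraries, from 1.69 to 2.22 against 0.853 to 1.09 for Snurf.

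Genes around the locus showed no calls. Of 29 other listed genes that start within 5 Mb of Ndn, 26 were tested, and 0 rose and 0 fell. At an unadjusted p under 0.05 edgeR gave 2 higher and 0 lower. Over all 14438 genes tested that cut gave 571 higher and 524 lower, the background for such counts in the lists below. DESeq2 and limma-voom also called 0 of the window genes. Their median log2 fold change was 0.00, beside 0.01 over all genes tested. Atp10a, a phospholipid flippase gene and the nearest listed gene on the Ube3a side, had a log2 fold change of 0.08 (edgeR, adjusted p = 0.849). Chrna7, the gene of a nicotinic acetylcholine receptor subunit and the nearest beyond Peg12, had one of -0.01 (edgeR, adjusted p = 0.985). The highest value of the window was 0.19 for Mef2a, a transcription factor gene at its far edge (edgeR, adjusted p = 0.546). The lowest was -0.20 for Otud7a, a deubiquitinase gene (edgeR, adjusted p = 0.738).

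Genes with 1 exon, the structure that Ndn shares with Magel2, Mkrn3 and Peg12, had a median near that of all genes. With the members left out, 337 such genes were tested, and 2 were higher and 0 lower. That was 0.593%, beside 0.416% of all genes tested in either direction. At an unadjusted p under 0.05 edgeR gave 19 higher and 11 lower, beside 571 higher and 524 lower of all 14438 genes tested. The genes called were Olfr31, an olfactory receptor gene with few counts, and Eif3j2, a paralogue of Eif3j1 whose value is uncertain where reads are shared, both named after their values were seen. The median log2 fold change was 0.01 for these 1-exon genes and 0.01 for genes with every transcript spliced.

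Of the MAGE relatives of necdin outside the 7 genes, 6 were tested, 1 of which, Nsmce3, also lies in that window, and 0 rose and 0 fell (1 lower at an unadjusted p under 0.05 in edgeR, 0 in the adjusted tests of DESeq2 and limma-voom), with a median log2 fold change of 0.02. Maged1, a MAGE gene expressed widely in neurons, had 1150, 1117 and 1050 CPM in r1r2V and 1101, 1084 and 1034 CPM in V, with overlapping groups. Magee1 had the lowest value (log2 fold change -0.16; edgeR, adjusted p = 0.528) and Mageh1 the highest (0.19; edgeR, adjusted p = 0.704).

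Of 16 tested genes of proteins that bind necdin, among them the E2F factors and p53, 0 rose and 0 fell in edgeR, also at an unadjusted p under 0.05, and DESeq2 and limma-voom called 0. The median was 0.09 over values from -0.50 to 0.15. The highest of the members above 5 CPM was 0.13 for Bmi1, a Polycomb gene, and the lowest -0.03 for Pias1, a SUMO ligase gene. Of 14 cell cycle genes driven by E2F factors, 0 rose and 0 fell by edgeR with or without adjustment and by DESeq2 and limma-voom, with a median of 0.10 and values from -0.11 to 0.30. Mcm7, a helicase gene of DNA replication, was at 0.17 (edgeR, adjusted p = 0.695), and Ccna2, which encodes cyclin A2, at -0.11 (edgeR, adjusted p = 0.893).

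Arntl, the gene of BMAL1, was the sole member called among 5 genes of BMAL1, its partner CLOCK and the SGT1-HSP90 chaperones linked to necdin, where 0.298% of all tested genes were called higher. It had 49.1, 47.3 and 45.9 CPM in r1r2V and 29.0, 29.5 and 27.2 CPM in V, so the groups did not overlap. Its log2 fold change was 0.73 (edgeR, adjusted p = 0.000914). The list, with Arntl in it, was chosen with earlier results of these data known, so nothing is read from this call. A link between the Arntl and Ndn differences was not tested. Arntl also lies on chromosome 7, at 113178471 to 113314126, far from Ndn, and these were the 2 called genes of the 1088 tested on that chromosome, beside 0.416% called among all tested genes. Hsp90aa1, named after its value was seen, had 0.22 on the log2 scale, short of the threshold (edgeR, adjusted p = 0.522). The lowest of the list was Hsp90ab1 with 0.07 (edgeR, adjusted p = 0.747). All 5 values were positive, and at an unadjusted p under 0.05 edgeR gave 2 higher, Arntl and Hsp90aa1, and 0 lower.

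The partners of the other members showed no calls. Of 10 genes of the TRIM27-USP7, WASH and retromer proteins that work with Magel2, 0 rose and 0 fell (median 0.03), from Washc1 at -0.08 to Washc4 at 0.15. Of 8 genes of the E2 enzyme, the regulator Herc2 and reported substrates of Ube3a, 0 rose and 0 fell (median -0.01), from Arhgef15, a guanine nucleotide exchange factor gene, at -0.15 to Arc, an activity-induced synaptic gene, at 0.26. Of 11 genes of Sm and U1 snRNP proteins, the family of SmN, 0 rose and 0 fell (median 0.07), from Snrpd2 at -0.06 to Snrpd1 at 0.18. Of 6 relatives of Mkrn3 and Peg12 with GSK3, 0 rose and 0 fell (median -0.05), from Frat1 at -0.10 to Mkrn1 at 0.03. At an unadjusted p under 0.05 edgeR also gave 0 higher and 0 lower in each of these 4 lists, and neither DESeq2 nor limma-voom called any of their genes.

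Of 36 tested imprinted genes outside the locus, 0 rose and 0 fell, with 0 higher and 2 lower at an unadjusted p under 0.05 in edgeR and none called by DESeq2 or limma-voom. Their median was 0.05, and 21 were positive. Peg10, a retrotransposon-derived gene read from the paternal copy, had the highest value, with 475, 673 and 398 CPM in r1r2V and 406, 405 and 425 CPM in V (log2 fold change 0.32; edgeR, adjusted p = 0.660). The value rested on r1r2V replicate 4: without that library the log2 fold change was 0.085, and without r1r2V replicate 1 it was 0.38. Replicate 5 of r1r2V lay below the V range. Tssc4 had the lowest of those above 5 CPM, with 28.2, 33.0 and 34.3 CPM in r1r2V and 38.9, 38.8 and 40.1 CPM in V (log2 fold change -0.30; edgeR, adjusted p = 0.345). Of 12 tested factors that keep imprints, DNA methyltransferases and KRAB zinc finger partners among them, 0 rose and 0 fell (median 0.06; 0 higher and 1 lower at an unadjusted p under 0.05 in edgeR, 0 by DESeq2 and limma-voom). Trim28, the corepressor that KRAB zinc finger proteins recruit to imprints, had -0.15 (edgeR, adjusted p = 0.598). Smchd1, a chromatin protein that acts on imprinted clusters, had 0.12 (edgeR, adjusted p = 0.703).

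**Figure D4:**
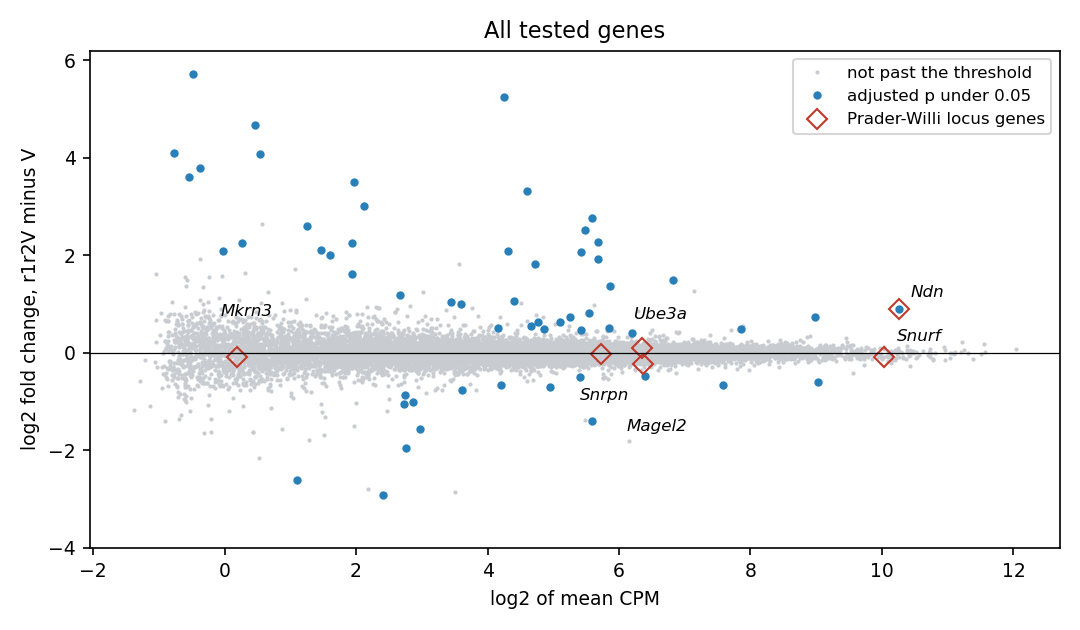
Log2 fold change, r1r2V minus V, against the log2 of mean CPM for the tested genes. Blue points passed the threshold of an adjusted p of 0.05, red diamonds mark the 6 tested genes of the locus, and 2 called genes at -10.05 and -9.29 lie outside the axis. Ndn, chosen by its difference in this contrast, lies at 0.90, and Snurf, at a similar mean CPM, at -0.09.

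The genes most like Ndn in pattern were sought over the 6 libraries among the 11787 tested genes whose mean reached 5 CPM. The 5 with the highest Pearson r of log2 CPM were Nadk (0.987), Zfp36l2 (0.981), Il18 (0.978), Zfp235 (0.977) and Gng7 (0.973), a description over 6 points that share their libraries and scaling. Their changes were far smaller than that of Ndn, with log2 fold changes from 0.12 to 0.37, and none passed the test (edgeR, adjusted p from 0.168 to 0.738). No other member of the locus was among them. Over the same libraries r with Ndn was -0.552 for Magel2, -0.40 for Snrpn, -0.562 for Snurf and 0.392 for Ube3a. Group means were not removed, so every r given here also carries the difference between r1r2V and V by which Ndn was chosen. Nothing is read from these values.

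Total expected counts ran from 17040698 to 17566335 in r1r2V and from 15729603 to 17780928 in V, and over all 14438 tested genes 43 rose and 17 fell. Nr1d1, a targeted gene, had 196, 157 and 147 CPM in r1r2V and 56.7, 62.5 and 57.0 CPM in V, and Nr1d2 had 229, 275 and 222 CPM in r1r2V and 177, 179 and 168 CPM in V. Neither was lower in r1r2V, so the direction of each difference rests on the sample titles. Cell type markers were set beside the Ndn difference. Of 10 pan-neuronal markers 0 were called, and their summed level was 6640 to 7287 CPM in r1r2V and 6905 to 6996 CPM in V. Of 3 GABAergic markers 0 were called, with 1086 to 1353 CPM in r1r2V and 1167 to 1320 CPM in V. The lowest was Slc32a1 (log2 fold change -0.25; edgeR, adjusted p = 0.314) and the highest Gad2 (0.04). Slc32a1 had 129, 116 and 117 CPM in r1r2V and 150, 141 and 141 CPM in V. Its groups did not overlap, as in 14.5% of all tested genes. Of 11 tested markers of neighbouring hypothalamic neurons 0 were called, with 1078 to 2089 CPM in r1r2V and 1579 to 1813 CPM in V. The 2089 CPM came from r1r2V replicate 5, where Pmch, a marker of this list, had 581 CPM. It had 16.8 and 1.66 CPM in the other r1r2V libraries and 12.4, 213 and 23.3 CPM in V. Its log2 fold change was 1.26, and -3.18 without r1r2V replicate 5. Of 12 SCN markers 0 were called, with 580 to 653 CPM in r1r2V and 611 to 692 CPM in V. Avp was the largest part of each of these SCN sums. Rgs16, named after its value was seen, had 116, 114 and 71.8 CPM in r1r2V and 57.5, 53.7 and 56.1 CPM in V. Its log2 fold change was 0.85, short of the threshold (edgeR, adjusted p = 0.0588). Lhx1, named likewise, went the other way, with 2.90, 3.33 and 2.62 CPM in r1r2V and 4.12, 4.28 and 4.00 CPM in V (log2 fold change -0.48). Of the 12 SCN markers, 4 had a positive log2 fold change. Of 8 tested hypothalamic hormones and factors studied in Prader-Willi models, 0 rose and 0 fell, with a median of -0.46. At an unadjusted p under 0.05 edgeR gave 0 higher and 1 lower, and DESeq2 and limma-voom called 0. Their summed level was 754, 603 and 969 CPM in r1r2V and 1038, 1112 and 1053 CPM in V. Every r1r2V sum lay below every V sum, and the cause was not tested. Bdnf, a neurotrophin gene, was at 0.23 and Pomc, the proopiomelanocortin gene, at -1.80. The Pomc value rested on V replicate 3: it had 23.7, 2.76 and 68.8 CPM in r1r2V and 5.42, 303 and 22.7 CPM in V, and without that library its log2 fold change was 1.19. Astrocyte markers summed to 3381 to 3991 CPM in r1r2V and 3524 to 3814 CPM in V, oligodendrocyte markers to 5141 to 6597 CPM in r1r2V and 5260 to 7335 CPM in V, microglia markers to 168 to 194 CPM in r1r2V and 164 to 175 CPM in V, and endothelial markers to 90.6 to 109 CPM in r1r2V and 94.0 to 96.6 CPM in V, with 0 called in each. Across these marker lists edgeR gave an unadjusted p under 0.05 for 1 GABAergic marker (lower), for 1 SCN marker in each direction, for 2 neighbouring hypothalamic markers (lower), for 1 endothelial marker (higher) and for 1 fibroblast marker (higher), and DESeq2 called 1 SCN marker, Rgs16. Meningeal fibroblast markers, with 0 of 6 called, summed to 45.6, 56.4 and 86.2 CPM in r1r2V and to 47.5, 49.6 and 42.8 CPM in V. All 6 had a positive log2 fold change, with a median of 0.52, whereas the medians of the other marker lists lay between -0.13 and 0.08. Ndn was highest in r1r2V replicate 4, while these markers were highest in replicate 5, and their part in the Ndn value was not tested.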

How the data were processed

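RNA of 6 SCN pools was sequenced, 3 titled r1r2V and 3 titled V. The authors deposited, per the file headers, an expected count (an estimated read number), an FPKM value and a length in bases for every gene listed in a library. The submitters' processing notes name build mm10 and, with no role, RSEM 1.2.12, Bowtie2 2.2.5, HISAT2 2.0.4, StringTie 1.0.4, Cufflinks 2.2.1, DESeq2 and GATK. For filters and strand use, the sources used here give nothing. Of the expected counts, 9.9% were not whole. Genes absent from a library's list were set to 0 there.

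Expected counts were rounded, and filterByExpr (minimum count 10) left 14438 genes. After TMM scaling, groups were compared with edgeR 4.0.16 in R 4.3.3 (glmQLFit, glmQLFTest, Benjamini-Hochberg over all genes tested, threshold 0.05). The 95% intervals use the standard error and degrees of freedom of that fit and are not adjusted. The fit was tested on simulated data. Positions are from RefSeq for GRCm38, the assembly that mm10 denotes, and exon numbers from GENCODE vM21. Near-identical transcripts were searched with BLAST 2.17.0. The labels do not say that the pools came from separate animals, so p-values reflect only the spread among these libraries, which may be technical.

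The members, 11 gene lists, 9 marker lists and the rule for named genes were chosen with earlier results of these data known. The rule took the members, Nr1d1, Nr1d2, Arntl, called genes of the window and its nearest genes, up to 4 called members of each list with its highest and lowest above 5 CPM, and the 5 genes most like Ndn. Lists are described by counts and medians. Alternatives were DESeq2 1.42.0, limma-voom and log2 FPKM with limma 3.58.1, other scalings and filters, and leaving out each library.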

Additional observations from a re-analysis of the deposited data

How the results depend on the processing

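The log2 fold change of Ndn was positive under all 15 alternatives and ran from 0.795 to 1.00, its range when single libraries were left out. These are refits of the values that chose Ndn and lend it no support. No gene of the 5 Mb window was called in any of these fits. Magel2 and Snurf stayed below 0 and Ube3a above 0 throughout. Mkrn3 and Snrpn changed sign, from -0.30 to 0.12 and from -0.10 to 0.04. Over all genes, DESeq2 called 69 higher and 40 lower. Leaving out single libraries gave 19 to 52 higher and 7 to 24 lower calls. The counts were 20 higher with 7 lower when V replicate 2 was left out, 20 with 8 when it was V replicate 3, and 19 with 7 when it was V replicate 4. In the gene lists, marker lists and the window, 1 gene (Arntl) was called with the settings of the report. DESeq2 and the fit with no filter called 2, adding Rgs16, an SCN marker, and without 1 library 1 to 2 were called, with Rgs16 added without r1r2V replicate 5 and Slc6a13, a fibroblast marker, without r1r2V replicate 1. Called 1-exon genes, Ndn included, numbered 2 to 4. The cause was not tested. Depth limits Mkrn3 and Peg12, whose libraries held 24 counts or fewer. No paired analysis was possible because replicate number 4 alone occurs in both groups.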
